A study of Mus musculus with 3 samples.

Results

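The genes described here encode the subunits of the Polycomb repressive complexes PRC1 and PRC2, read by complex and by the choice between paralogs. The members are 30 genes given as a list of complex subunits, without use of their measured values, and all 30 were found among the 21782 genes of the count table. The table holds polyA+ RNA-seq of 1 condition, wild type (WT) mouse embryonic fibroblasts (MEFs) from E12.5 embryos, with 3 clones and 1 library per clone. MEFs are primary connective tissue cells that divide for a limited number of passages, and the cells were harvested while asynchronous. There was no treated or mutant group, the strain, embryo and passage behind each clone were not given in the sources used here, and the spread reported below is the spread between these 3 libraries.

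Polycomb complexes keep developmental genes silent. PRC2 methylates lysine 27 of histone H3 through EZH1 or EZH2, which work only together with EED and SUZ12, while the histone-binding RBBP4 or RBBP7 and accessory proteins guide or tune the complex. PRC1 ubiquitylates histone H2A through RING1 or RNF2 (RING1B), paired with 1 of 6 PCGF proteins. In canonical PRC1 a PCGF2 or BMI1 core carries a CBX protein that reads methylated H3 and a PHC protein that can polymerize, and in variant PRC1 the core carries RYBP or YAF2 instead. In fibroblasts these complexes are best known for silencing the Ink4a/Arf locus, and they are lost from it as cultures age.

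Levels are given as counts per 1000000 counts (CPM) after TMM scaling, which corrects for library composition, and levels of different genes are compared per kb of 1 reference transcript, the annotated one that carries the longest reading frame. The libraries held 25261357, 22594316 and 24791198 counts in clones 1, 2 and 3. All 8 fibroblast markers were expressed, meaning at least 1 CPM in every clone, and their summed level was 46101 to 57173 CPM. Of the 4 epithelial markers only Krt18 was expressed, and of the 4 endothelial markers only Kdr. The 6 leukocyte markers were all highest in clone 2, where they summed to 1104 CPM against 249 in clone 1 and 203 in clone 3. The 6 proliferation markers were all lowest in clone 1, with sums of 368, 723 and 609 CPM in clones 1, 2 and 3. The part of these differences in the values of the Polycomb genes was not tested, and in bulk RNA fewer cells of a type and less RNA per cell cannot be told apart.

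Promoter windows are described first, because E2F factors are known regulators of Ezh2 and Eed in dividing fibroblasts. The windows were searched after the levels of the members and their differences between clones had been computed. Windows of 250 bases before to 50 after the annotated start came from RefSeq (GRCm38.p6), and 26 of the 30 members had one. The consensus E2F site was searched in its 4 spellings TTTGGCGC, TTTGCCGC, TTTCGCGC and TTTCCCGC on both strands. It was present in the windows of 3 of the 26 members (11.5%), which were Ezh2, Suz12 and Phf19, against 418 of 8708 expressed genes with a window (4.8%) and 704 of 27025 genes (2.6%). The windows of these 3 genes and that of Eed, shown because EED is the core partner of EZH2 and SUZ12 and its window has no such match, are given 5′ to 3′ on the strand of the gene, with the match in capitals.

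Ezh2 (chr6:47594981-47595280, minus strand): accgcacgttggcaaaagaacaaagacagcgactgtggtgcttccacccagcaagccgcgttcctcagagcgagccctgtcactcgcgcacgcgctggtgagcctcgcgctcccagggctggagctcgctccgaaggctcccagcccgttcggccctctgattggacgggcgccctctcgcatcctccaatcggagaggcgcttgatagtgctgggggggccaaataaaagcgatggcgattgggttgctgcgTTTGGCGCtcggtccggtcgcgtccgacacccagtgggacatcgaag
Suz12 (chr11:79992856-79993155, plus strand): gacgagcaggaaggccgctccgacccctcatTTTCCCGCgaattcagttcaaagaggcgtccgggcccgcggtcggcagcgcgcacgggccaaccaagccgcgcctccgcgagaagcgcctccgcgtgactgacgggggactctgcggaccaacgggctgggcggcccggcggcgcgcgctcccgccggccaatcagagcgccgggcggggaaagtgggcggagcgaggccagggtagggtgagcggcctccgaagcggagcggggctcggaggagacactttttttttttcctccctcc
Phf19 (chr2:34913927-34914226, minus strand): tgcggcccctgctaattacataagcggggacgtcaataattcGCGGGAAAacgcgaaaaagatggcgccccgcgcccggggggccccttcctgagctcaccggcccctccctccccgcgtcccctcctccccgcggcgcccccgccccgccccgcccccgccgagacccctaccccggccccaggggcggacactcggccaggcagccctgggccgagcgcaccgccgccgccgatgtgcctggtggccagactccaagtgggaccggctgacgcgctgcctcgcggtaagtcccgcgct
Eed (chr7:89980927-89981226, minus strand): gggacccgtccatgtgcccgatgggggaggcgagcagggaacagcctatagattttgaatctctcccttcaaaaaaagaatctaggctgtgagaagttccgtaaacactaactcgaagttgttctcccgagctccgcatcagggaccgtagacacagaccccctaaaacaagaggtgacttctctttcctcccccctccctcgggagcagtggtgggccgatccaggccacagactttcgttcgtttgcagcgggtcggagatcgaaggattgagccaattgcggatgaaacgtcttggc

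The match of Ezh2 begins 4 bases into the transcript as annotated, while those of Suz12 and Phf19 begin at positions -219 and -208 from the start, the latter on the opposite strand to the gene. A match is a description of letters only, and binding of E2F was not measured. All 3 genes had their lowest level in clone 1 and differed between the clones, as did 6 of the 23 members whose window has no match and 27.1% of all genes tested.

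All 30 members were expressed, whereas 52.2% of all listed genes were. Mean levels ran from 1.69 CPM for Cbx7 to 212 CPM for Rbbp7, and the median member stood at 26.4 CPM, next to 25.7 CPM for the median expressed gene. Per kb the median member had 7.18 CPM, against 8.48 for expressed genes, and 13 members lay above that median and 17 below it. Polycomb genes as a list were thus close to the middle of the transcriptome, and the spread among them was wide.

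The order of the members was clearest at its top. Rbbp7, Phc2, Rbbp4, Aebp2, Eed, Cbx6 and Yaf2 followed each other per kb of reference transcript, with every step present in every clone. Per kb of all annotated exons the first 3 kept their places, and the next were Yaf2 with 10.4, Eed with 10.1 and Suz12 with 8.56, while Cbx6 and Aebp2 stood at 8.29 and 7.88. Below Yaf2 the neighbours in the order, down to Rybp, were not separated in every clone, and this middle field holds most subunits of the catalytic cores, including Ezh2, Suz12, Ring1, Rnf2 and Bmi1. At the bottom stood Phf19, Cbx8 and Cbx7, which exceeded only 11%, 8.8% and 2.4% of expressed genes. Rbbp7 exceeded 94.2% of expressed genes and Phc2 87.9%.

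**Figure D1:**
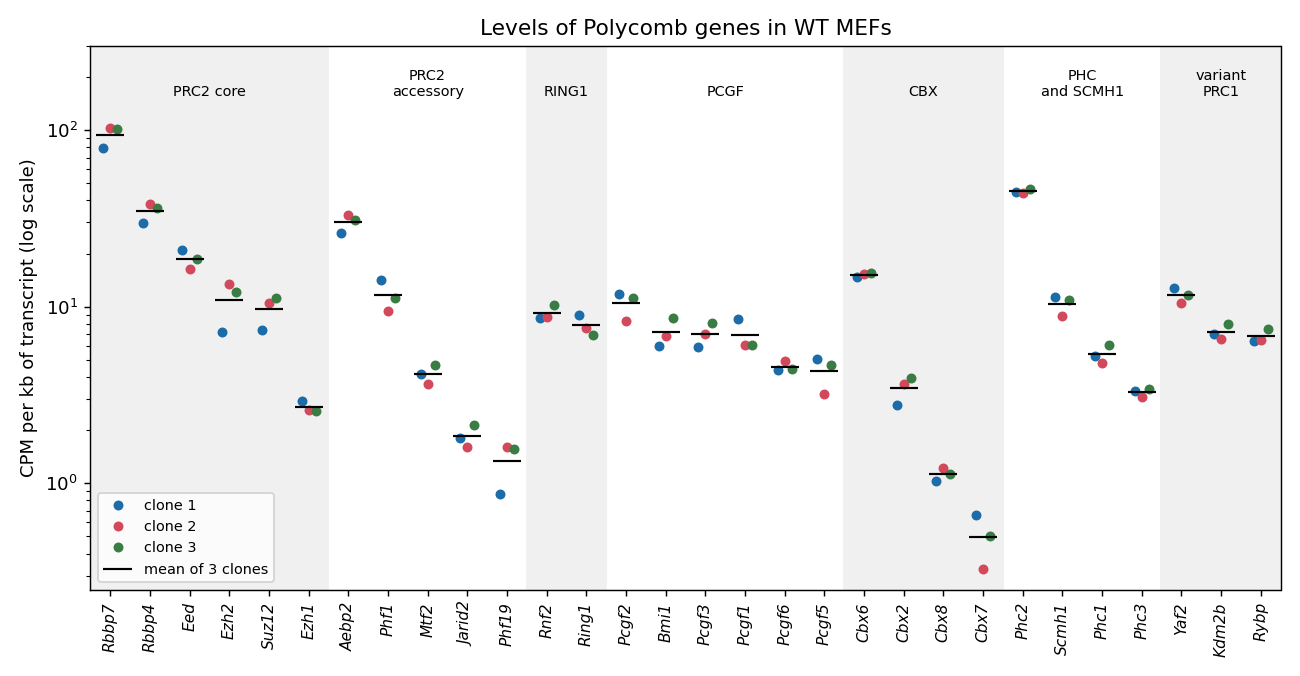
Level of the 30 members in CPM per kb of the reference transcript, on a log axis, with 1 point per clone. Members are grouped by complex, and the points run from 0.498 for Cbx7 to 94.3 for Rbbp7 as means of the 3 clones.

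In the PRC2 core, Ezh2 was the main methyltransferase gene and the core gene that varied most between the clones. Ezh2 (chr6:47530139-47595341, minus strand, GRCm38) encodes the more active enzyme, which is typical of dividing cells. It had 501, 846 and 848 counts in clones 1, 2 and 3, or 20.2, 37.5 and 33.6 CPM. Clone 1 was thus the low one, 1.86-fold below clone 2, with a Benjamini-Hochberg adjusted p of 2.13e-28 in a chi-square test that compares libraries and not conditions. Ezh1 (chr11:101191115-101226463, minus strand), the paralog known from resting and differentiated cells, had 12.3, 10.9 and 10.7 CPM, and its levels were not called different (adjusted p = 0.241 by chi-square).

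The EZH choice moved with clone. Both proteins are 68.1% identical over 724 aligned residues, and none of the 86-nt stretches of Ezh1 and 0.3% of those of Ezh2 match another gene within 2 mismatches, so reads of the pair are separable. Ezh2 took 71.1%, 83.9% and 82.5% of the pair per kb, 79.2% ± 6.99 (SD, n = 3). Ezh2 exceeded Ezh1 per kb 2.46-fold, 5.2-fold and 4.71-fold in clones 1, 2 and 3. Of raw counts, Ezh2 had 62.1% in clone 1 (95% Wilson interval 58.7 to 65.4), and 77.5% (75 to 79.9) and 75.8% (73.2 to 78.2) in the others, so the interval of clone 1 stands apart from both. These intervals cover counting error only.

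Eed and Suz12, whose proteins EZH1 and EZH2 need for activity, went different ways. Suz12 had 32.4, 45.7 and 48.9 CPM, lowest in clone 1 like Ezh2 (1.51-fold, adjusted p = 2.92e-19, chi-square). Eed had 43.5, 33.6 and 38.7 CPM, highest in clone 1 and lowest in clone 2 (1.29-fold, adjusted p = 1.26e-06). Per kb Eed reached 18.7 ± 2.38 and Suz12 9.68 ± 2.0 (SD, n = 3), while Ezh1 and Ezh2 summed to 13.6 ± 3.06. On this scale Eed was above Suz12 in every clone, but in CPM Suz12 was ahead in clones 2 and 3, and per kb of all exons it was ahead in clone 2 (9.24 against 8.78).

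The histone-binding subunits were the most abundant of PRC2, with Rbbp7 well ahead of the other members and Rbbp4 close to Aebp2. Rbbp4 and Rbbp7 also serve other chromatin complexes, such as NuRD and Sin3, and together they reached 129 ± 17.4 CPM per kb (SD, n = 3). Rbbp7 had 178, 230 and 227 CPM and Rbbp4 had 132, 169 and 161 CPM, so both were lowest in clone 1. Their proportion hardly moved, as Rbbp7 took 72.5%, 72.9% and 73.5% of the pair per kb (72.9% ± 0.480, SD, n = 3). The exact figure depends on length and mapping: Rbbp7 took 57.9% of the raw counts, and 32.5% of the 86-nt stretches of Rbbp4 and 23.9% of those of Rbbp7 match another annotated gene or pseudogene. The proteins are 89.6% identical.

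Among the accessory subunits, Aebp2 was the most abundant per kb of reference transcript. AEBP2 and JARID2 define the PRC2.2 form, and the Polycomb-like proteins MTF2, PHF1 and PHF19 define PRC2.1. Aebp2 had 67.5, 85.0 and 80.3 CPM and Jarid2 had 10.9, 9.58 and 12.8 CPM. Per kb Aebp2 stood at 30.1 ± 3.51 and Jarid2 at 1.85 ± 0.273 (SD, n = 3), so the 2 partners stood far apart in transcript level. For Aebp2 the length matters, since all its annotated exons cover 9851 bp and its reference transcript 2575 nt, and per kb of all exons its level was 7.88, below the 8.39 of Phf1.

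Phf1 was the leading Polycomb-like gene. It had 35.7, 23.9 and 28.2 CPM and was highest in clone 1 (1.49-fold, adjusted p = 1.8e-12, chi-square). Mtf2, the Polycomb-like gene best known from embryonic stem cells, had 16.8, 14.9 and 19 CPM. Phf19 had 81, 135 and 148 counts, or 3.26, 5.99 and 5.86 CPM, lowest in clone 1 by 1.84-fold (adjusted p = 2.79e-05, chi-square).

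Within the Polycomb-like family, Phf1 took 73.8%, 64.2% and 64.1% per kb (67.4% ± 5.55, SD, n = 3). Mtf2 took 24.5% ± 2.64 and Phf19 8.14% ± 3.24, with 4.55% for Phf19 in clone 1 and 10.9% and 9% in the others. The order Phf1, Mtf2, Phf19 was the same in every clone, and clone 1 carried more Phf1 and less Phf19 than the other clones. The exons of Phf1 overlap those of Cuta on the opposite strand over 39.3% of their length, and Cuta stood at 33.5 ± 3.33 CPM (SD, n = 3). Those of Mtf2 overlap Tmed5 on the opposite strand over 6.9%, and Tmed5 stood at 79.9 ± 13.6 CPM. The strand setting of the counting is not given in the sources used here, so the levels of Phf1 and Mtf2 are uncertain to that extent.

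In the catalytic core of PRC1, Rnf2 and Ring1 were near parity per kb of reference transcript. RNF2 is the principal H2A ubiquitin ligase of embryonic cells, and RING1 is its paralog with 66.3% identity. Rnf2 had 27.8, 28.2 and 32.9 CPM, and Ring1 had 18.3, 15.4 and 14.1 CPM. Rnf2 was thus highest in clone 3 and Ring1 in clone 1, and both differed between the libraries (adjusted p = 0.00261 and 0.00158, chi-square).

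The RING choice per kb shifted in step with this. The Rnf2 to Ring1 ratio was 0.964, 1.16 and 1.48 in clones 1, 2 and 3, and Rnf2 took 54.2% ± 5.33 (SD, n = 3) of the pair. In clone 1 the pair was therefore nearly even on this scale with Ring1 ahead, and in clone 3 Rnf2 was clearly ahead. Per kb of all annotated exons Rnf2 was ahead in every clone, with 54.4%, 58.9% and 64.7%. Rnf2 led in raw counts in every clone, with 60.3% (95% Wilson interval 57.4 to 63.1), 64.6% (61.6 to 67.5) and 70.0% (67.3 to 72.5).

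No PCGF gene dominated. The PCGF subunit differs between PRC1 forms, with PCGF2 (MEL18) and BMI1 (PCGF4) in canonical PRC1 and PCGF1, PCGF3, PCGF5 and PCGF6 in variant forms. Per kb Pcgf2 took 25.7% ± 2.74, Bmi1 17.7% ± 2.99, Pcgf3 17.4% ± 2.85, Pcgf1 17.1% ± 3.20, Pcgf6 11.4% ± 1.78 and Pcgf5 10.6% ± 1.67 (SD, n = 3). Pcgf2 and Bmi1 together made up 42.8%, 41.8% and 45.9% of the family. Their sum was 17.6 ± 2.27 CPM per kb, and that of Pcgf1, Pcgf3, Pcgf5 and Pcgf6 was 22.8 ± 1.40 (SD, n = 3). These sums are of transcripts and do not give the amounts of the complexes. This order turned per kb of all annotated exons, where Pcgf2 and Bmi1 together took 53.3%, 51.1% and 55.7%.

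The PCGF genes did not move as a block. Pcgf3, which forms PRC1.3, had 45.3, 53.9 and 62.5 CPM and Bmi1, known for silencing Ink4a/Arf, had 21.5, 24.7 and 30.9 CPM, so both were lowest in clone 1 and highest in clone 3. Pcgf2 had 29.5, 20.8 and 27.7 CPM and Pcgf5, the close relative of Pcgf3, had 8.25, 5.23 and 7.56 CPM, and both were lowest in clone 2. Pcgf1, the core of the KDM2B-containing form, had 7.85, 5.59 and 5.58 CPM and was highest in clone 1. Pcgf6, known from germ cell gene silencing, was level at 9.46, 10.6 and 9.58 CPM and was not called different (adjusted p = 0.462, chi-square).

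Several of the PCGF shares depend on what the counts are divided by. Pcgf3 took 41.8% of the raw counts, since its reference transcript has 7708 nt, while Pcgf1 took 4.98% of them. Per kb of all annotated exons Pcgf5 fell to 2.14% because those exons cover 12629 bp. The reads of Pcgf1 and Bmi1 are uncertain too, because 48.0% and 36.5% of their 86-nt stretches match the predicted genes Gm8930 and Gm5946. PCGF2 and BMI1 are 68.1% identical and PCGF3 and PCGF5 48.6%, and the other PCGF pairs are 33.5% to 43.6% identical.

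Cbx6 led the 4 CBX members. CBX proteins are the chromodomain subunits of canonical PRC1, and Cbx7 is the member known from embryonic stem cells and from bypass of senescence. Cbx6 had 85.2, 88.5 and 90.1 CPM, the lowest relative spread of all members (CV 2.79%; adjusted p = 0.235, chi-square). Cbx2 had 10.5, 14.0 and 15.1 CPM and was lowest in clone 1 (1.44-fold, adjusted p = 5.24e-05). Cbx8 had 92, 98 and 102 counts, or 4.03 ± 0.322 CPM (SD, n = 3), and was not called different (adjusted p = 0.602, chi-square).

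Cbx7 was the lowest member, with 56, 25 and 43 counts, or 2.25, 1.11 and 1.70 CPM. It had the highest relative spread of the list (CV 33.9%) and was 2.03-fold higher in clone 1 than in clone 2 (adjusted p = 0.0189, chi-square). Cbx6 exceeded it per kb by 22.1-fold, 46.6-fold and 30.9-fold in clones 1, 2 and 3.

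Of the 4 CBX members, Cbx6 took 76.7%, 74.5% and 73.5% per kb, with a mean of 74.9% ± 1.65 (SD, n = 3). Cbx2 took 17.1% ± 2.33, Cbx8 5.56% ± 0.327 and Cbx7 2.49% ± 0.942. Cbx2 and Cbx8 are neighbours on chromosome 11 with a gap of 5.0 kb (chr11:119022962-119031270 and chr11:119036305-119040969). Cbx6 and Cbx7 are 81.1 kb apart on chromosome 15 (chr15:79823896-79834688 and chr15:79915807-79971119).

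Phc2 was dominant among the Polyhomeotic genes, whose proteins carry the SAM domain through which PRC1 polymerizes. Phc2 had 177, 175 and 184 CPM, Phc3 had 36.5, 33.8 and 37.7 CPM, and Phc1 had 22.1, 20.4 and 25.6 CPM. Only Phc1 was called different between clones (adjusted p = 0.00116, chi-square), while Phc2 missed the threshold narrowly (adjusted p = 0.0502).

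Per kb, Phc2 took 84.0%, 84.8% and 83.1% of the family (84.0% ± 0.870, SD, n = 3), Phc1 9.97% ± 0.785 and Phc3 6.08% ± 0.154. Phc3 outranked Phc1 in CPM and fell behind it per kb, since the reference transcript of Phc3 has 10976 nt. Scmh1, another SAM domain protein that associates with PRC1 in smaller amounts, had 29.2, 22.9 and 28.2 CPM and was lowest in clone 2 (adjusted p = 0.000118, chi-square). The PHC family summed to 53.9 ± 2.07 CPM per kb, above the CBX members with 20.2 ± 1.0 and the RING pair with 17.1 ± 0.654 (SD, n = 3).

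Variant PRC1 was represented by Rybp, Yaf2 and Kdm2b. RYBP and YAF2 compete with CBX proteins for RING1 and RNF2, and KDM2B brings PRC1.1 to unmethylated CpG islands. Rybp had 28.9, 29.0 and 33.8 CPM, Yaf2 had 21.3, 17.6 and 19.6 CPM, and Kdm2b had 36.5, 34.1 and 41.4 CPM. Of the 86-nt stretches of Kdm2b, 21.8% match another gene, mainly Rnf34 or Gm12397. Rybp and Kdm2b were highest in clone 3 and Yaf2 in clone 1 (adjusted p = 0.0036, 0.000315 and 0.0237, chi-square).

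The order of Rybp and Yaf2 turns with the scale. Rybp had more counts in every clone, 57.5% (95% Wilson interval 54.8 to 60.2), 62.3% (59.3 to 65.2) and 63.3% (60.7 to 65.8) of the pair. Per kb Yaf2 was ahead in every clone, with 66.5%, 61.9% and 60.9% (63.1% ± 2.95, SD, n = 3), since the reference transcript of Rybp has 4503 nt and that of Yaf2 1676 nt. A Rybp pseudogene matches 13.5% of the 86-nt stretches of Rybp. Together the pair reached 18.4 ± 1.31 CPM per kb, beside 20.2 ± 1.0 for the CBX members.

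**Figure D2:**
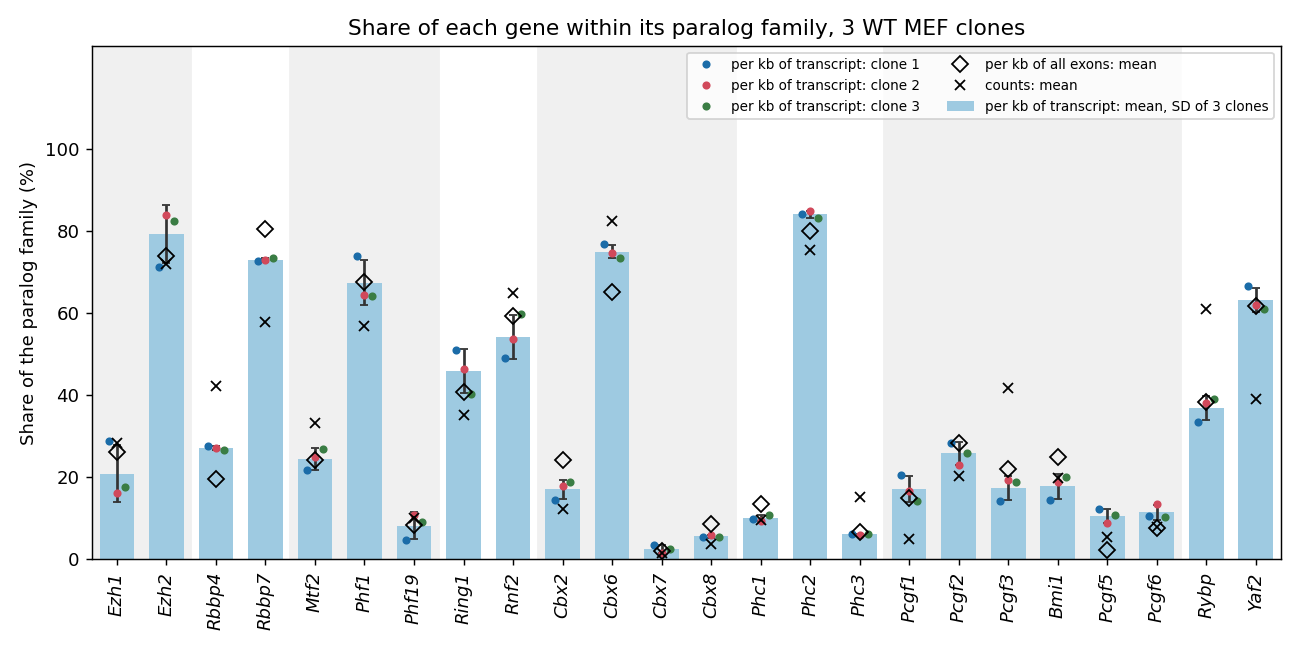
Share of each gene in its paralog family in percent, per kb of transcript, with 1 point per clone and bars for the mean and error bars for the SD of 3 clones. Diamonds are means per kb of all exons and crosses means of raw counts. Phc2 (84.0%), Ezh2 (79.2%) and Rbbp7 (72.9%) led their families on all 3 scales. Cbx6 (74.9%) led the listed CBX members on all 3 scales, and the CBX shares are of those members only. Yaf2 was ahead of Rybp on both length scales and behind it in counts.

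Differences between the clones were common among the members, and also among genes in general. By chi-square with Benjamini-Hochberg adjustment, 24 of the 30 members (80.0%) differed between the libraries, against 62.5% of the 12218 genes that had 10 or more counts in each library. Of all 30 members, 5 (16.7%) were called and also had a highest clone at least 1.5-fold above the lowest one, against 18.6% of genes. They were Ezh2, Suz12, Phf19, Pcgf5 and Cbx7. Members thus did not stand out by the size of the differences, and their median fold was 1.29 against 1.24 over all genes tested. The 6 members that were not called were Ezh1, Pcgf6, Cbx6, Cbx8, Phc2 and Phc3.

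Of all 30 members, 11 (36.7%) were called and lowest in clone 1, against 27.1% of the genes tested, 11 (36.7%) were called and lowest in clone 2, against 21.3%, and 2 (6.7%) were called and lowest in clone 3, against 14.2%. The members lowest in clone 1 were Ezh2, Suz12, Rbbp4, Rbbp7, Aebp2, Phf19, Rnf2, Pcgf3, Bmi1, Cbx2 and Rybp. They include 4 of the 6 PRC2 core genes. The members lowest in clone 2 were Eed, Jarid2, Mtf2, Phf1, Pcgf2, Pcgf5, Cbx7, Phc1, Scmh1, Yaf2 and Kdm2b, and those lowest in clone 3 were Ring1 and Pcgf1.

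The deviations of single genes from their own mean on the log2(CPM + 1) scale show the same split. In clone 1 Ezh2 was at -0.52, Phf19 at -0.47, Suz12 at -0.35 and Cbx2 at -0.29, while Phf1 and Cbx7 were at 0.30. The medians of all members were -0.03, -0.06 and 0.09 in clones 1, 2 and 3, against -0.006 to 0.008 for expressed genes. The list as a whole thus shifted little, and most in clone 3. Called and highest in clone 3 were 10 members (33.3%), against 15.3% of the genes tested. In clone 2 they were 5 (16.7%), against 23.5%. The median BCV, an edgeR estimate of the spread between clones beyond counting noise, was 0.162 for members and 0.158 for genes tested. With 3 libraries the estimate for a gene is drawn toward those of other genes. The 2 medians are therefore close in part by construction.

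**Figure D3:**
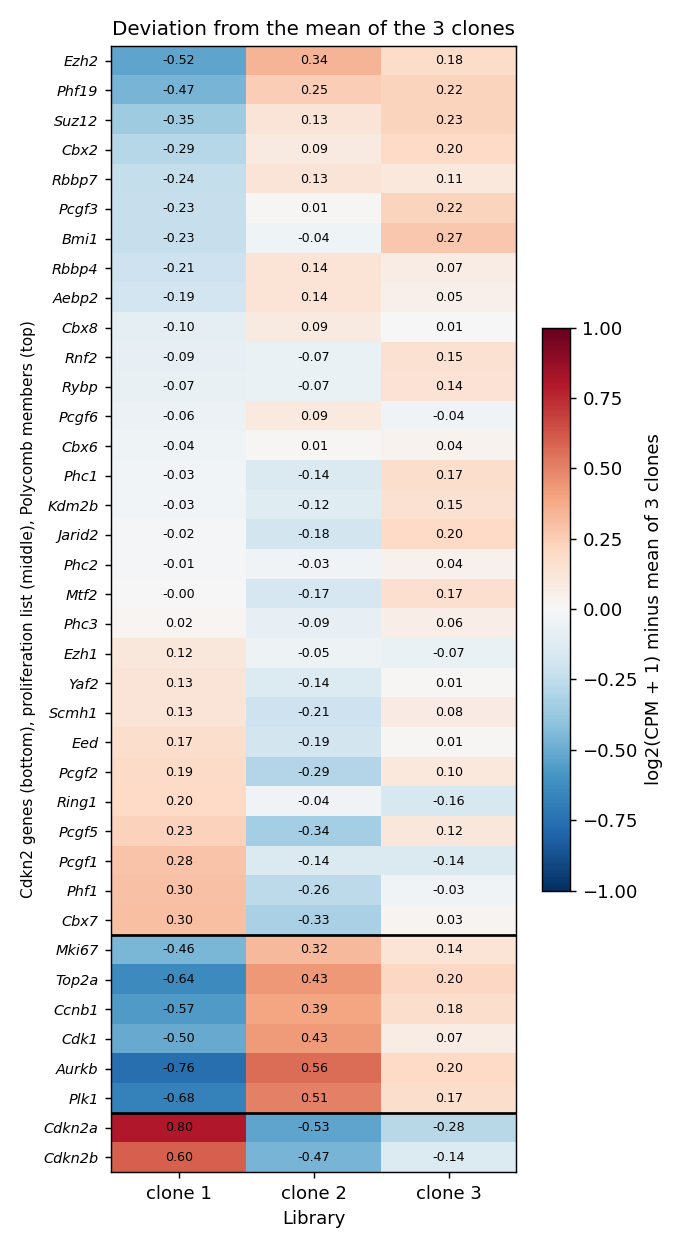
Heatmap of the deviation of each member from its mean over the 3 clones, as log2(CPM + 1), with 1 column per clone and the value printed in each cell. Below the members stand the 6 proliferation markers, and at the bottom Cdkn2a and Cdkn2b. Among the members, Ezh2 (-0.52), Phf19 (-0.47) and Suz12 (-0.35) are lowest in clone 1, and Phf1 (0.30) and Cbx7 (0.30) are highest there.

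Clone 1 carried many of these calls, among the members and among genes in general. Without it, 14 of the 30 members differed between the remaining libraries, and the share over all genes tested fell from 62.5% to 31.7%. Of the 14 members, 13 were among the 24. The members that lost their call were Ezh2, Suz12, Rbbp4, Rbbp7, Aebp2, Phf19, Ring1, Pcgf1, Cbx2, Cbx7 and Yaf2, and Phc2 gained one. Without clone 2, 17 members differed, against 45.4% of genes, and without clone 3, 18, against 53.0%.

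Proliferation and arrest genes were read beside the members. Mki67, a marker of cycling cells, had 132, 227 and 200 CPM in clones 1, 2 and 3, and Ezh2 had 20.2, 37.5 and 33.6. The 3 arrest genes Cdkn1a, Cdkn2a and Cdkn2b were all highest in clone 1 and summed to 587, 411 and 464 CPM. Their part in the differences among members was not tested.

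Classical targets of Polycomb silencing were mostly at the floor. Of 10 textbook targets, 8 had 0 or 1 count in each clone, among them Pax6, Pax7, Olig2, Neurog1 and Foxa2, which specify neural, muscle or endoderm lineages. The exceptions were both genes of the Ink4a/Arf/Ink4b locus. Cdkn2a, which encodes the senescence proteins p16 and p19, had 94.5, 37.0 and 44.3 CPM, 2.56-fold apart (adjusted p = 3.21e-174, chi-square). Cdkn2b, which encodes p15, had 68.7, 32.3 and 40.9 CPM and was likewise highest in clone 1 (2.13-fold, adjusted p = 9e-79). Among the members, 11 were called and lowest in clone 1, and 9 (30.0%) were called and highest there, against 23.8% of the genes tested. The latter were Eed, Phf1, Ring1, Pcgf1, Pcgf2, Pcgf5, Cbx7, Scmh1 and Yaf2. A relation of either set to this locus was not tested.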

How the data were processed

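PolyA+ RNA of wild type MEFs was analysed in 3 libraries, 1 per clone. According to the methods and the submitters' processing notes, the authors aligned 86-nt single-end reads by TopHat (version 2.0.0), which ran on Bowtie (version 0.12.7) and Samtools (version 0.1.16). Up to 2 mismatches and 5 positions per read were accepted, and HTSeq counted reads per gene. The notes name mm9 and the methods mm10. The HTSeq version, annotation and strand setting are not given in the sources used here. The deposited values are raw counts per gene, with no normalization.

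From the counts, CPM were computed with TMM library sizes (edgeR 4.0.16, R 4.3.3). At these depths 1 count was 0.0402, 0.0443 and 0.0396 CPM. Expressed genes reached 1 CPM in each of the clones. For genes that had 10 or more in each library, the 3 counts were set against scaled library sizes by Pearson's chi-square (2 degrees of freedom), called at a Benjamini-Hochberg adjusted p under 0.05. It compares libraries, and a clone, its culture and its library cannot be told apart. Lengths and positions came from GENCODE M21 (GRCm38), to which 99.7% of genes were matched. Reads carry no molecular identifiers, so 95% Wilson intervals cover counting error only. Deviations are of log2(CPM + 1), with a pseudocount of 1 CPM. Shared stretches are 86-nt windows of a transcript that match another gene with at most 2 mismatches. Proteins were aligned with Biopython 1.88. All members are named. Of the further subunits, 1 gene is not reported here. The members were listed without use of their measured values. Even so, the members, the other gene lists and the tests were chosen with earlier results of these data known. Procedures were tested on simulated data that held counting noise only, so that test does not cover the spread between real clones. Alternatives were DESeq2 1.42.0 size factors, total counts, other thresholds, other lengths and leaving out each clone. The analysis used Python 3.11.15.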

Additional observations from a re-analysis of the deposited data

How the results depend on the processing

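Counts of members that differed between the libraries were 24 with TMM, 24 with DESeq2 size factors and 27 with total counts, where Cbx6, Phc2 and Phc3 were added. Over all genes tested the shares called were 62.5%, 62.4% and 63.9% under these scalings. Leaving out 1 clone in turn gave 14 to 18 members, against 31.7% to 53.0% of genes. A further requirement of 1.5-fold with all clones left 5, against 18.6% of genes. Levels of single members in CPM moved by less than their SD under every scaling tried. All 30 members stayed expressed under each setting, but only the other scalings could have removed a member. The other thresholds were looser, and leaving out 1 clone could not remove any. Shares depended on length. In raw counts, Ezh2 took 71.8% of its pair, Rbbp4 42.1%, Mtf2 33.1%, Rnf2 64.9%, Cbx6 82.3%, Phc2 75.3%, Pcgf3 41.8% and Rybp 61.0%, and the order of Rybp and Yaf2 turned. Per kb of all annotated exons, Rbbp4 took 19.5%, Cbx6 65.1%, Phc2 80.0% and Pcgf3 21.9%. In 45 further comparisons of these values with an alternative, counts moved by less than 1.5 times and shares by less than their SD. The counts of expressed members are among the 45. Many of these comparisons were of shares with 1 clone left out, and they could not have come out otherwise. Leaving out 1 clone cannot move a mean by as much as the SD of all clones. They are therefore no evidence that the shares are stable, and only the change of length could move a share that far. Depth limits Cbx7, Phf19 and Cbx8, which had 25 to 148 counts per clone. No paired analysis was possible because the samples form 1 condition.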

Other observations

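Further genes of the Polycomb system were read as counts and ranges. Of 9 further subunits, 4 were expressed, and of the 6 tested 1, Sfmbt1, differed between the libraries, against 62.5% of all genes tested. Depth limits this count, since Scml2 and Lcor among the 6 had only 15 to 28 counts per clone. Sfmbt1 was the highest of the 9 with 14.2 CPM. Ezhip, an inhibitor of PRC2, was at 0 in each clone, which allows up to 3 counts per library.

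All 20 partners of variant PRC1 were expressed, from 12.6 CPM for Auts2 to 113 CPM for Csnk2a1, and 13 differed between the libraries, a share near the 62.5% of all genes tested. Of the 20, 9 were called and lowest in clone 1, against 27.1% of genes. Tfdp1, the dimer partner of E2F factors, had 80.6, 133 and 124 CPM in clones 1, 2 and 3. The 11 genes of the H2A deubiquitinase PR-DUB were expressed as well, from 1.43 CPM for Asxl3 to 161 CPM for Hcfc1, and 8 differed, against 62.5% of genes. Of the 11, 5 were called and highest in clone 1, against 23.8% of genes. Among the genes listed as demethylases of H3K27, Kdm6b had 111, 78.4 and 89.4 CPM, highest in clone 1. Kdm6a had 12.9, 13.7 and 14.3 CPM and Uty had 9.02, 10.6 and 12.1 CPM, both lowest in clone 1. Uty was called different (adjusted p = 0.00665, chi-square) and Kdm6a was not (adjusted p = 0.444, chi-square).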
